A study of Mus musculus with 2 samples.

Results

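The 9 genes described here encode insulin-like growth factors, their binding proteins, the receptors of insulin and of these factors, and the substrates that the receptors phosphorylate. They were taken by name as Igf1, Igf2, Igf1r, Igf2r, Insr, Irs1, Irs2, Igfbp2 and Igfbp7, which are 9 of the 25120 genes with a column in either deposited table, and all 9 had a column in both. No insulin gene is among the 9. Ins1 and Ins2 were read as part of a wider list of pathway genes. The rule that lists them uses names and no measured value, but it was written with earlier results of these data known.

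Single-cell transcriptomes came from the basolateral amygdala, a brain region that assigns value to rewards such as food, of adult C57BL/6 mice. One group received FGF21, a metabolic hormone made in large part by liver, as 1 mg/kg given once each day on 3 days, and the other received vehicle on the same schedule. Per treatment, 3 mice gave tissue that was pooled and dissociated with pronase, with actinomycin D added to stop transcription. Cells were then sorted for tdTomato fluorescence and Hoechst viability. Sample titles name KLB, the co-receptor of FGF21, but the labels do not say which genetic construct drove tdTomato. Each pool gave 1 library, so no difference between treatments has a replicate check, no test was run, and every interval below covers counting error only.

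After filtering, 1935 FGF21 cells with a median of 6838 UMIs (unique molecules) and 2337 vehicle cells with a median of 4232 UMIs were used, and 12 cell barcodes occurred in both libraries. Cells were clustered without the 9 genes and without the pathway genes. Clusters were named from marker lists, with "-like" added because the names rest on these markers. Microglia-like cells (887 FGF21 and 1408 vehicle cells) and oligodendrocyte precursor-like cells (OPC-like, 587 and 379 cells) were the most numerous, and neuron-like cells numbered 20 and 15. The sort and the depth of the libraries can set these numbers. Free RNA of other cells was present in every class. In classes that should lack a given marker list, that list stood at a median of 35.0% of its library-wide level in the FGF21 library and 29.2% in the vehicle library. Over 18 pairs of class and list the share ran from 24.9% to 74.1% in FGF21 and from 20.9% to 51.6% in vehicle. The median share was used to predict how many UMIs of each gene background would give. Such predictions, and ratios after subtracting them, are therefore approximate, and a prediction can exceed what was found.

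Insulin and the insulin-like growth factors are secreted peptides that bind receptor tyrosine kinases at the cell surface. The activated receptor phosphorylates substrate proteins, which recruit PI3-kinase and so switch on AKT, while binding proteins in the extracellular fluid hold the growth factors and govern how much reaches the receptor. In the brain the pathway is known for roles in neuron survival, myelination and the response to nutrients.

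The ligand transcript Igf1 was concentrated in border macrophage-like cells. Igf1 (chr10:87858265-87937042, plus strand, GRCm38) encodes insulin-like growth factor 1, the main ligand of the Igf1r receptor. Levels are given as CPM, the UMIs of a gene per 1000000 UMIs of the class. Border macrophage-like cells had 17 Igf1 UMIs in 22 FGF21 cells, or 186 CPM (exact 95% Poisson interval 108 to 298), and 45 UMIs in 52 vehicle cells, or 311 CPM (227 to 416). The intervals of the 2 libraries overlapped, and the FGF21 class was too small for a ratio. An Igf1 UMI was found in 40.9% of these FGF21 cells and 42.3% of these vehicle cells, against 0 of 20 and 0 of 46 erythroid-like cells, which should lack the gene. The exact 95% Clopper-Pearson upper bounds of those shares were 16.8% in FGF21 and 7.71% in vehicle erythroid-like cells, which limits detection at their depth only. Median depth was 3921.5 and 2208.5 UMIs in border macrophage-like cells and 2256 and 1989 UMIs in erythroid-like cells. Erythroid markers took 553834 and 694913 CPM of erythroid-like cells, so fewer of their UMIs could report any other gene, here and wherever this class is used for comparison below. Border macrophage-like cells held 35.4% of the FGF21 and 51.7% of the vehicle Igf1 UMIs of all used cells, although they made up 1.14% and 2.23% of them.

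Igf1 in microglia-like cells stood at 2.89 CPM in the FGF21 library and 3.78 CPM in the vehicle library, with 16 and 22 UMIs. Background predicted 41.3% and 63.5% of those UMIs. Igf1 was therefore 64.4-fold higher in border macrophage-like than in microglia-like cells in the FGF21 library (95% interval 30.6 to 136) and 82.1-fold higher in the vehicle library (48.3 to 144). With a stricter and with a looser filter on cells no border macrophage-like class was named, so the contrast has no value there. Under the remaining settings the ratio ran from 50.9 to 150 in the FGF21 library and from 68.6 to 223 in the vehicle library. At the finer clustering resolution of 2.0, the level in border macrophage-like cells was 408 CPM in the FGF21 and 484 CPM in the vehicle library. Over the settings with a value, that level ran from 118 to 408 CPM in the FGF21 library and from 289 to 484 CPM in the vehicle library. All 8 border macrophage markers were found in the class in both libraries, and their sum was 7383 and 11364 CPM, against 511 and 654 CPM in microglia-like cells. Microglia markers summed to 18654 and 24234 CPM in border macrophage-like cells and to 38145 and 46656 CPM in microglia-like cells. Leukocyte markers summed to 1490 and 1850 CPM in border macrophage-like cells, with 4 and 7 of 10 at 0 UMIs. In microglia-like cells they summed to 27.3 and 33.7 CPM, and in leukocyte-like cells to 2466 and 1697 CPM. Their part in the Igf1 level was not tested. Igf1 was the only member at least 1.5-fold apart in both libraries between these classes, 1 of 7 with enough UMIs, where 8.07% of 11418 genes were that much higher. At least 20 UMIs over the compared classes were required in each library.

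Igf2, the ligand that is abundant in the fetus and that Igf2r clears, was nearly undetected. Igf2 (chr7:142650766-142666816, minus strand) had 4 UMIs in the FGF21 library and 6 in the vehicle library. Of these, 1 FGF21 UMI and 3 vehicle UMIs lay in fibroblast-like cells, which number 9 and 19, and 2 vehicle UMIs lay in choroid plexus-like cells. In GENCODE vM21 the gene shares nearly its whole length with the same-strand gene Gm49394, which had no column, and it overlaps the antisense gene Igf2os, which had 3 and 7 UMIs. Whether the authors' counting used strand is not given in the sources used here, so reads of these genes may not be told apart. Other overlaps on the opposite strand with a column were Igf1os (0 and 2 UMIs), Gm9747 within Irs1 (0 and 2 UMIs) and the last bases of Polr2b with Igfbp7 (713 and 484 UMIs).

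**Figure D1:**
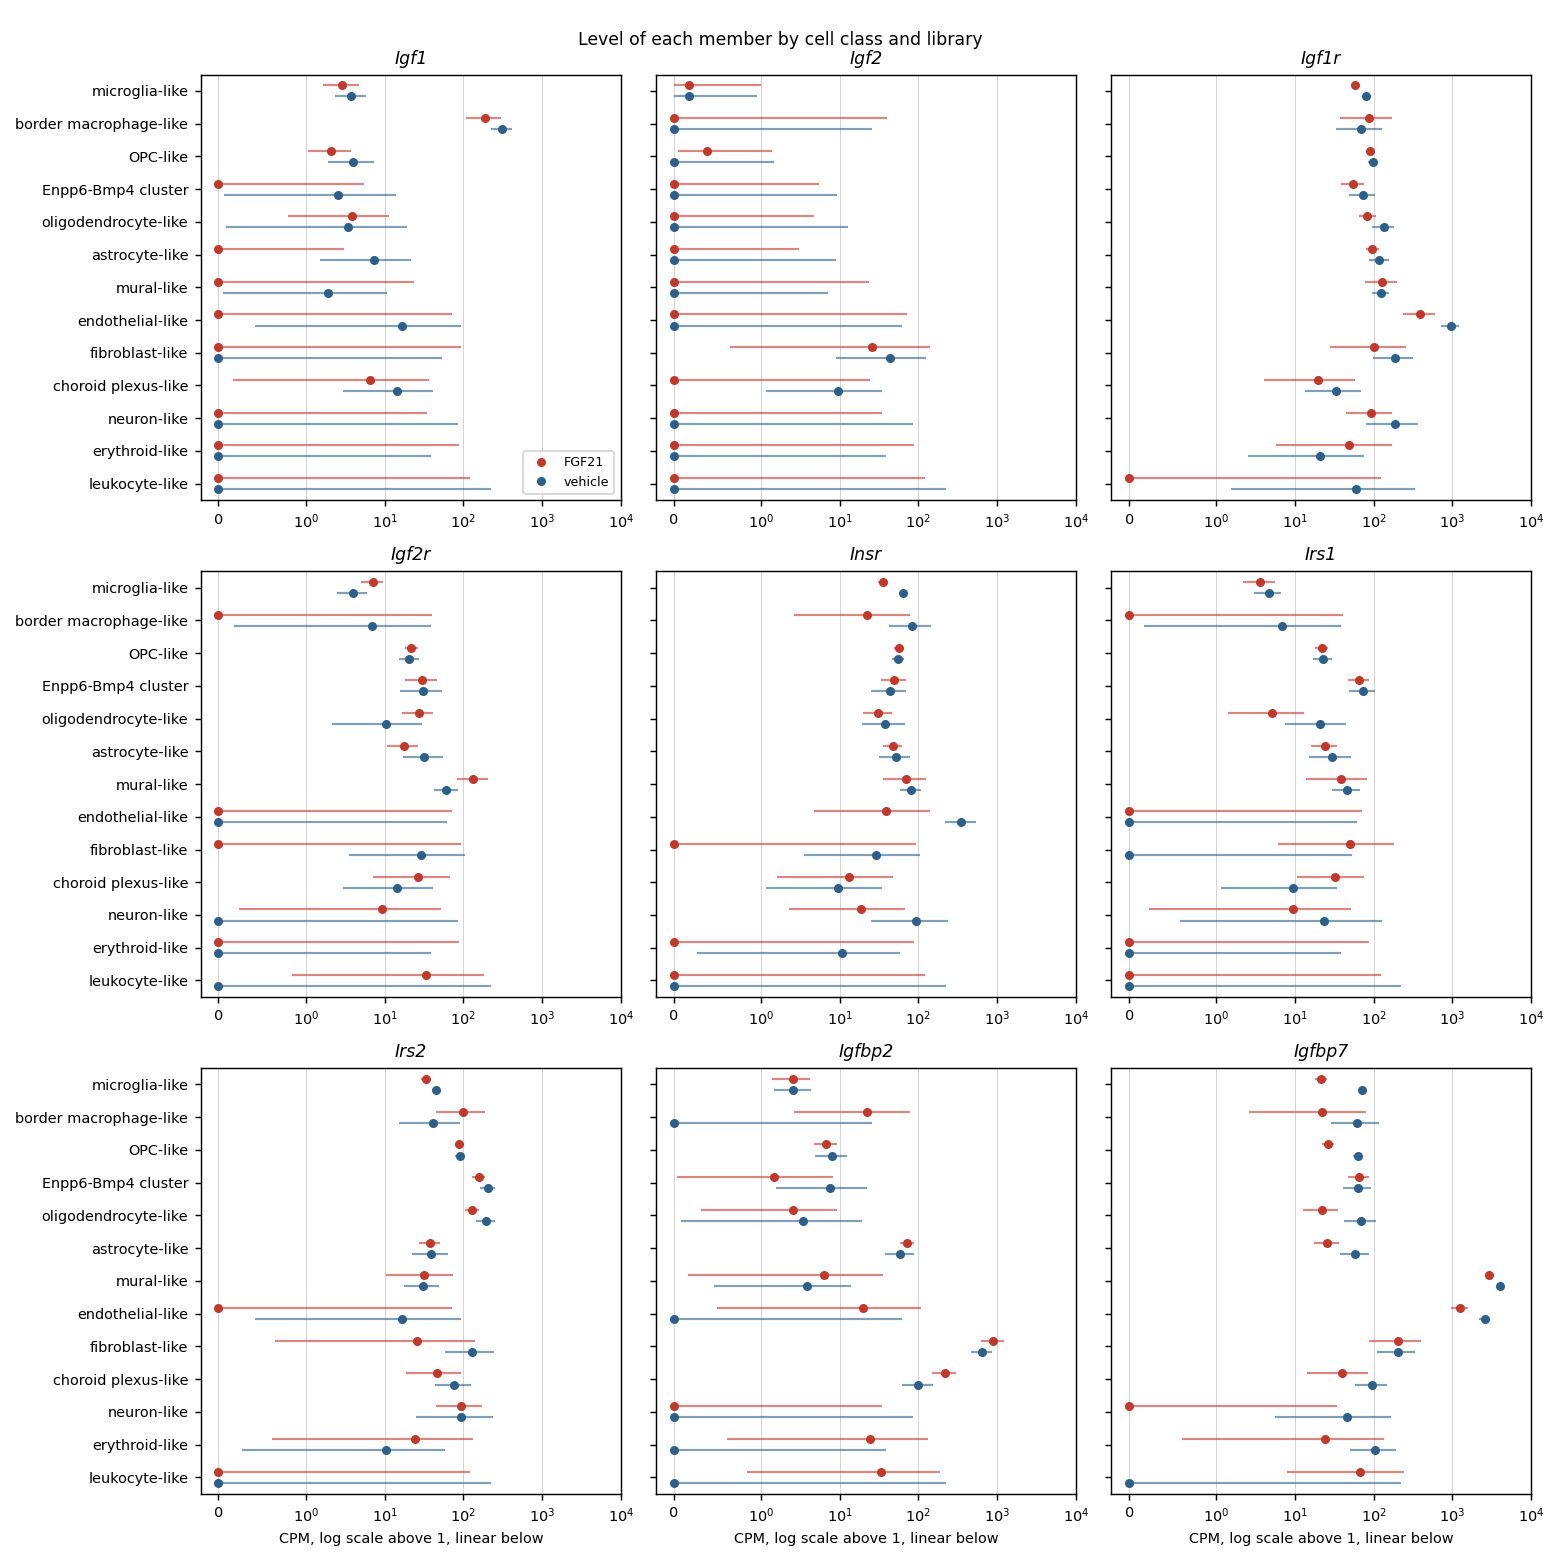
Level of each gene in CPM (horizontal axis, logarithmic above 1 and linear below) in 13 cell classes of the FGF21 (red, upper) and vehicle (blue, lower) libraries; points are class sums, bars are exact 95% Poisson intervals, and OPC-like means oligodendrocyte precursor-like. Igf1 stood out in border macrophage-like cells at 186 and 311 CPM, Igf1r in endothelial-like cells at 390.0 and 953 CPM, Igfbp2 in fibroblast-like cells at 892 and 635 CPM and Igfbp7 in mural-like cells at 2966 and 4062 CPM.

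Of the binding protein transcripts, Igfbp7 was highest in mural-like and endothelial-like cells, and Igfbp2 in fibroblast-like, choroid plexus-like and astrocyte-like cells. Igfbp7 (chr5:77349240-77408041, minus strand) encodes a secreted protein of vessel walls that binds insulin-like growth factors weakly. Mural-like cells (pericytes and vascular smooth muscle) had 465 Igfbp7 UMIs in 40 FGF21 cells, or 2966 CPM (2703 to 3249), and 2124 UMIs in 182 vehicle cells, or 4062 CPM (3891 to 4238). Endothelial-like cells followed, with 1248 CPM (961 to 1594) in 16 FGF21 cells and 2575 CPM (2185 to 3016) in 32 vehicle cells. An Igfbp7 UMI was found in 97.5% of FGF21 and 100% of vehicle mural-like cells, and in 5.00% and 17.4% of erythroid-like cells. Mural-like cells had a median of 3742 and 2771 UMIs. The vehicle level was the higher one in both vascular classes, and the intervals of the 2 libraries did not overlap. Fibroblast-like cells had 204 and 202 CPM. In the 8 other classes with over 10 cells and any Igfbp7 UMI in both libraries, it ranged from 21.7 to 65.2 CPM in the FGF21 library and from 59.0 to 106 CPM in the vehicle library.

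Igfbp2 (chr1:72824503-72852474, plus strand) encodes a secreted binding protein of cerebrospinal fluid and astrocytes. Fibroblast-like cells had 35 UMIs in 9 FGF21 cells, or 892 CPM (621 to 1240), and 44 UMIs in 19 vehicle cells, or 635 CPM (461 to 853). Choroid plexus-like cells had 216 CPM (149 to 304) in the FGF21 and 100.1 CPM (62.0 to 153) in the vehicle library, with 33 and 21 UMIs. Astrocyte-like cells came next, with 87 and 24 UMIs, or 72.2 CPM (57.8 to 89.0) in the FGF21 and 59.0 CPM (37.8 to 87.8) in the vehicle library. The order fibroblast-like, choroid plexus-like, astrocyte-like held in both libraries, and the intervals of choroid plexus-like and astrocyte-like cells overlapped in the vehicle library. Compared with OPC-like cells, astrocyte-like cells had 10.8-fold more Igfbp2 in the FGF21 library (7.20 to 16.4) and 7.43-fold more in the vehicle library (3.93 to 14.2). Alternatives gave 8.63 to 47.6 and 4.87 to 12.7. Of 7 members with enough UMIs, Igfbp2 was the 1 that was at least 1.5-fold higher in astrocyte-like than in OPC-like cells in both libraries, and Irs2, at 0.421 and 0.438 times the OPC-like level, was the 1 that was lower. Of 11427 genes, 8.45% were that much higher and 27.0% that much lower.

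Among the receptors, Igf1r (chr7:67952827-68233668, plus strand) encodes the tyrosine kinase that binds both growth factors. At least 1 Igf1r UMI, background included, lay in every class of both libraries except the 6 leukocyte-like FGF21 cells. Endothelial-like cells had 20 UMIs in the FGF21 library, or 390.0 CPM (238 to 602), and 57 UMIs in the vehicle library, or 953 CPM (722 to 1235). These were the highest levels in each library, the next class did not reach them within counting error, and the libraries' intervals did not overlap. In the FGF21 library the interval of fibroblast-like cells, 102 CPM (27.8 to 261) on 4 UMIs, did overlap that of endothelial-like cells. Marker sums in this class also differed. Astrocyte markers stood at 7000 CPM in FGF21 and 1003 CPM in vehicle endothelial-like cells (1 and 3 of 10 at 0 UMIs), mural markers at 1462 and 719 CPM (2 and 4 of 10 at 0) and endothelial markers at 13006 and 15938 CPM (0 of 9 at 0). Their part in the Igf1r difference was not tested. An Igf1r UMI was found in 62.5% of FGF21 and 53.1% of vehicle endothelial-like cells at median depths of 2756 and 1520.5 UMIs, and in 10.0% and 4.35% of erythroid-like cells. Choroid plexus-like cells had 19.7 CPM in the FGF21 and 33.4 CPM in the vehicle library, on 3 and 7 UMIs where background predicted 4.07 and 5.76. Erythroid-like cells had 2 and 2 UMIs where background predicted 1.11 and 2.60. Igf1r ranged from 54.8 to 128 CPM in the FGF21 library and from 73.6 to 135 CPM in the vehicle library over microglia-like, OPC-like, oligodendrocyte-like, astrocyte-like and mural-like cells and the Enpp6-Bmp4 cluster described below.

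The vascular classes were compared with each other. Igf1r was 3.06-fold higher in endothelial-like than in mural-like cells of the FGF21 library (1.56 to 5.99) and 7.67-fold higher in the vehicle library (5.28 to 11.1). Igf2r had 0 UMIs in endothelial-like cells, whose Poisson upper bounds were 71.9 CPM in the FGF21 and 61.7 CPM in the vehicle library. In mural-like cells it stood at 134 CPM (82.9 to 205) and 61.2 CPM (41.9 to 86.4). The intervals were separate in the FGF21 library and overlapped in the vehicle library, so a vehicle difference was not detectable at this depth. Igfbp7 in endothelial-like cells was 0.421 and 0.634 times the mural-like level. Among 3 members with enough UMIs, 1 was at least 1.5-fold higher and 2 were lower in both libraries, counting Igf2r on its 0 UMIs, where 10.9% and 21.6% of 2341 genes were. Slc2a1, the glucose transporter of the blood-brain barrier, was 55.0-fold and 71.5-fold higher in endothelial-like than in mural-like cells.

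Igf2r (chr17:12682406-12769664, minus strand) encodes the receptor that carries Igf2 and mannose 6-phosphate-tagged enzymes to lysosomes. Mural-like cells had 134 CPM (82.9 to 205) in the FGF21 library and 61.2 CPM (41.9 to 86.4) in the vehicle library. OPC-like cells had 21.8 and 20.6 CPM and the Enpp6-Bmp4 cluster 29.6 and 30.4 CPM. Microglia-like cells had 7.05 and 3.96 CPM, where background predicted 85.3% and 98.5% of the UMIs. The antisense gene Airn lies across the 5′ part of Igf2r. Airn had 9 UMIs in FGF21 and 28 in vehicle mural-like cells, or 57.4 and 53.5 CPM, and at most 8 UMIs in any other class of either library. If the counting did not use strand, the mural-like level of Igf2r could hold Airn reads, so it is uncertain.

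Insr (chr8:3122061-3279617, minus strand) encodes the insulin receptor. OPC-like cells had 292 Insr UMIs in the FGF21 and 139 in the vehicle library, or 55.9 CPM (49.7 to 62.7) and 55.2 CPM (46.4 to 65.2). Astrocyte-like cells had 47.3 and 51.6 CPM, the Enpp6-Bmp4 cluster 48.9 and 43.1 CPM, and mural-like cells 70.2 and 80.3 CPM. These classes did not differ beyond counting error from their neighbours in the order of levels. Endothelial-like cells were uneven between libraries, with 2 UMIs in the FGF21 library, or 39.0 CPM (4.72 to 141), and 21 UMIs in the vehicle library, or 351 CPM (217 to 537). The astrocyte and mural marker sums given for Igf1r were higher in these FGF21 cells, and their part in the Insr levels was not tested.

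Among the substrates, Irs1 and Irs2 had their highest CPM in one small cluster of the oligodendrocyte lineage, which was also the deepest class. For Irs2 the cluster and oligodendrocyte-like cells did not differ beyond counting error. For Irs1 the intervals of the cluster and of mural-like cells overlapped in both libraries. Genes leading this cluster of 38 FGF21 and 32 vehicle cells included Enpp6, Bmp4, Fyn, Gpr17 and Bcas1. Enpp6 and Bcas1 are known from newly forming oligodendrocytes and Gpr17 from late precursors. Its marker score was nearest to OPC-like with oligodendrocyte close behind, so it is called the Enpp6-Bmp4 cluster by its genes, a choice made after the clusters were seen. The 10 precursor markers summed to 11114 CPM in FGF21 and 11355 CPM in vehicle cells of the cluster, and the 10 oligodendrocyte markers to 19554 and 20234 CPM. With a median of 15413 UMIs in FGF21 and 11738.5 in vehicle cells it was the deepest class.

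Irs1 (chr1:82233101-82291416, minus strand) encodes an adaptor that couples insulin and growth factor receptors to PI3-kinase. In the Enpp6-Bmp4 cluster it had 44 UMIs in the FGF21 library, or 65.2 CPM (47.4 to 87.5), and 29 UMIs in the vehicle library, or 73.6 CPM (49.3 to 106). OPC-like cells had 22.0 CPM (18.2 to 26.4) in the FGF21 and 22.6 CPM (17.1 to 29.3) in the vehicle library. Oligodendrocyte-like cells had 5.14 CPM (1.40 to 13.2) and 20.7 CPM (7.60 to 45.1), from 4 and 6 UMIs. Mural-like cells had 38.3 CPM (14.0 to 83.3) in the FGF21 and 45.9 CPM (29.4 to 68.3) in the vehicle library, from 6 and 24 UMIs. These mural-like intervals overlapped those of the cluster. The level in the cluster was 2.96-fold that of OPC-like cells in the FGF21 library (2.04 to 4.22) and 3.25-fold in the vehicle library (2.00 to 5.17). Oligodendrocyte-like cells had 0.0789 times the cluster's level in the FGF21 and 0.282 times in the vehicle library. Background predicted 8.62% and 5.97% of the cluster's Irs1 UMIs. With every cell thinned to 2000 UMIs, an Irs1 UMI was found in 7.89% of FGF21 and 16.1% of vehicle cells of the cluster, 3.77% and 4.27% of OPC-like cells and 8.33% and 5.13% of mural-like cells.

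Irs2 (chr8:10984681-11008458, minus strand) encodes the second widely used substrate, best known from liver and from the insulin-producing cells of the pancreas. The Enpp6-Bmp4 cluster had 106 UMIs in the FGF21 library, or 157 CPM (129 to 189.9), and 81 UMIs in the vehicle library, or 205 CPM (163 to 255). OPC-like cells had 88.6 CPM (80.7 to 97.1) and 89.7 CPM (78.4 to 102). Oligodendrocyte-like cells had 129 CPM (105 to 156) in the FGF21 and 193 CPM (146 to 251) in the vehicle library. The cluster thus had 1.77-fold the OPC-like level in the FGF21 (1.42 to 2.19) and 2.29-fold in the vehicle library (1.75 to 2.96). Unlike Irs1, Irs2 in oligodendrocyte-like cells overlapped that of the cluster within counting error. An Irs2 UMI was found in 73.7% and 68.8% of the cluster's cells and in 5.00% and 2.17% of erythroid-like cells. With every cell thinned to 2000 UMIs those shares were 18.4% and 32.3% in the cluster, 21.2% and 39.5% in oligodendrocyte-like cells and 16.6% and 11.7% in OPC-like cells. At equal depth the Irs2 share in oligodendrocyte-like cells was thus not below that of the cluster in either library. These shares come from a single random thinning and have no interval. They rest on 80 FGF21 and 38 vehicle oligodendrocyte-like cells and 38 and 31 cells of the cluster, so no difference between them is drawn. The thinned ratio of levels in the FGF21 library was 1.08 for Irs2 and 1.77 for Irs1, so the FGF21 contrast of Irs2 with OPC-like cells was under 1.5-fold at equal depth per cell.

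Of 7 members with enough UMIs, Irs1 and Irs2 were the 2 at least 1.5-fold higher in the Enpp6-Bmp4 cluster than in OPC-like cells in both libraries, and 0 were lower. Of 11332 genes, 6.03% were that much higher and 19.1% that much lower. Igf1r in the cluster was 0.610 times the OPC-like level in the FGF21 library (0.424 to 0.854) and 0.753 times in the vehicle library (0.494 to 1.11). Insr was 0.875 and 0.781 times the OPC-like level, and both intervals included 1. Between oligodendrocyte-like cells and the cluster, Igf1r was higher, 1.52-fold and 1.83-fold, and Irs1 lower, 1 member each way of 5, where 10.4% and 24.1% of 6401 genes were. Directly against OPC-like cells, oligodendrocyte-like cells had 0 members higher and 1 lower of 7 in both libraries, where 7.31% and 36.8% of 11294 genes were. The 1 was Igfbp2, on 2 FGF21 and 1 vehicle UMIs in oligodendrocyte-like cells. Irs2 was 1.45-fold the OPC-like level in the FGF21 (1.16 to 1.80) and 2.15-fold in the vehicle library (1.58 to 2.90). Igfbp7 in the cluster was 2.47-fold the OPC-like level in the FGF21 library (1.72 to 3.49) and 0.992 times in the vehicle library (0.623 to 1.52).

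Receptor and substrate transcripts were also counted in the same cell. A UMI of Igf1r or Insr together with one of Irs1 or Irs2 was found in 68.4% of FGF21 and 62.5% of vehicle cells of the Enpp6-Bmp4 cluster. The share was 34.2% and 25.3% in OPC-like cells, 35.4% and 39.0% in oligodendrocyte-like cells and 7.89% and 6.82% in microglia-like cells. These shares follow depth, and after thinning to 2000 UMIs per cell they were 5.26% and 9.68% in the cluster and 4.29% and 3.20% in OPC-like cells. Endothelial-like cells, with a receptor UMI in 62.5% and 59.4% of cells, had both in 0 of 16 FGF21 and 0 of 32 vehicle cells. Their Irs1 UMIs numbered 0 in both libraries and their Irs2 UMIs 0 and 1. Poisson upper bounds in the FGF21 and vehicle libraries were 71.9 and 61.7 CPM for Irs1 and 71.9 and 93.2 CPM for Irs2. An Irs1 level like that of OPC-like cells, 22.0 and 22.6 CPM, could thus go undetected in this small class.

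The promoters of both substrates are shown because both transcripts had a higher CPM in this cluster than in OPC-like cells in both libraries. RefSeq sequence of GRCm38.p6 matched 8 of the 9 genes, with 12 promoter windows. Each line gives the 250 bases before the RefSeq transcript start, read 5′ to 3′ on the gene's strand, at chr1:82291440-82291689 (minus) for Irs1 and chr8:11008930-11009179 (minus) for Irs2. The GENCODE positions given above start further downstream, at 82291416 for Irs1 and 11008458 for Irs2. Distances below are from the RefSeq starts only. Capitals mark matches to CACGTG, the E-box, and to TGTTTTG, the core of the insulin response element that FoxO factors are known to bind in other promoters.

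Irs1: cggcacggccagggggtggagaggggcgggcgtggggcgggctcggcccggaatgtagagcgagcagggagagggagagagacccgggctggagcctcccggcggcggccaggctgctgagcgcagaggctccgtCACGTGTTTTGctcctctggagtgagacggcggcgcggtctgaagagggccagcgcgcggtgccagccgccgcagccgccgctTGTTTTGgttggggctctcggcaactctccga
Irs2: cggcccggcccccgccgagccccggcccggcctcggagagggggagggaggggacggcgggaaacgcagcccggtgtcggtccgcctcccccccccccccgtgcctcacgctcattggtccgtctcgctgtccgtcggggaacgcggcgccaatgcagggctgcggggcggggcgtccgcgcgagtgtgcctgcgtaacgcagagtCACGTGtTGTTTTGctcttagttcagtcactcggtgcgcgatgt

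Irs1 held CACGTG at 115 to 110 bases before the start, overlapping TGTTTTG at 111 to 105, and a second TGTTTTG at 32 to 26. Irs2 held CACGTG at 44 to 39 and TGTTTTG at 37 to 31, with 1 base between them. Both strands were searched, and the motifs were chosen with these sequences in view. CACGTG stood in 6.02% of 32851 mouse windows of this length and in those of Igf2r, Igfbp2, Irs1 and Irs2. TGTTTTG stood in 5.56% of windows and among the members in Irs1 and Irs2. Both strings together were found in 97 windows (0.295%), of which Irs1 and Irs2 were 2. GTAAACA, a FoxO site, stood in 3.17% of windows and in none of these genes. A match is a description of letters and not of binding.

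Other genes of the pathway came from 11 lists with 71 genes. Of 49 with enough UMIs, 4 were at least 1.5-fold higher in the Enpp6-Bmp4 cluster than in OPC-like cells in both libraries and 11 were lower. Over all 11332 genes, 6.03% were that much higher and 19.1% lower, so these counts do not set the lists apart. Pik3r3, a regulatory subunit of PI3-kinase, was 8.74-fold higher in the FGF21 library (7.27 to 10.5) and 10.5-fold higher in the vehicle library (8.27 to 13.5). Its level was 375 and 457 CPM in the cluster against 42.9 and 43.3 CPM in OPC-like cells. Inppl1, the phosphatase SHIP2 that removes a phosphate from the PI3-kinase product, was 4.44-fold and 2.39-fold higher. Rictor, the defining subunit of the second mTOR complex, was 2.81-fold and 2.94-fold higher, and Ptpn11, the phosphatase SHP2 that binds the substrates, was 1.73-fold and 2.65-fold higher. Lower genes included Igfbp3 at 0.0637 and 0.132 times, Igfbp5 at 0.334 and 0.176 times, the binding-protein peptidase Htra1 at 0.433 and 0.185 times and the receptor phosphatase Ptprf at 0.281 and 0.335 times the OPC-like level.

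Of 37 pathway genes with enough UMIs, 8 were higher and 8 lower in oligodendrocyte-like cells than in the Enpp6-Bmp4 cluster in both libraries, where 10.4% and 24.1% of all genes were. Grb14, an adaptor known to inhibit the insulin receptor, was 10.3-fold higher in the FGF21 library and 25.9-fold in the vehicle library, at 397 and 394 CPM in oligodendrocyte-like cells. Sort1, the sorting receptor sortilin, was 8.63-fold and 5.07-fold higher and Phlpp1, a phosphatase of AKT, 4.87-fold and 6.45-fold higher. Pik3r3 was 0.130 and 0.0227 times, Inppl1 0.231 and 0.331 times and Rictor 0.297 and 0.430 times the level of the cluster. Pik3r3, Inppl1, Rictor and Irs1 were thus highest in the cluster of these 3 classes in both libraries, while Grb14 was highest in oligodendrocyte-like cells.

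**Figure D2:**
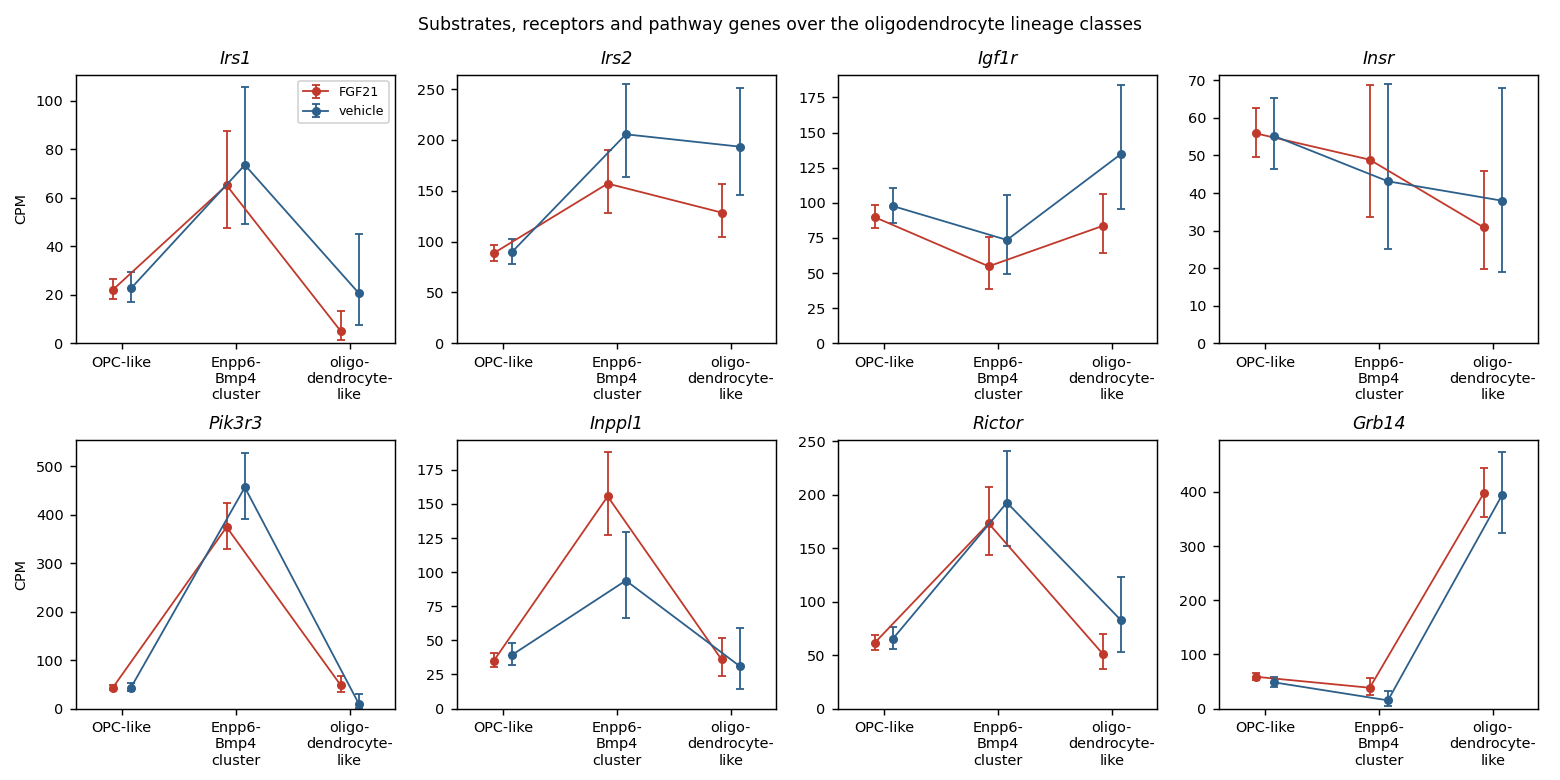
Level in CPM (vertical axis, linear from 0) of 4 members and 4 pathway genes in oligodendrocyte precursor-like (OPC-like) cells, the Enpp6-Bmp4 cluster and oligodendrocyte-like cells of the FGF21 (red, left) and vehicle (blue, right) libraries; bars are exact 95% Poisson intervals and lines join the classes of a library only as a guide. Irs1 peaks in the Enpp6-Bmp4 cluster at 65.2 and 73.6 CPM, as do Pik3r3, Inppl1 and Rictor, while Grb14 is highest in oligodendrocyte-like cells at 397 and 394 CPM.

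Pathway genes were also compared in border macrophage-like and astrocyte-like cells. Of 53 pathway genes with enough UMIs, 5 were at least 1.5-fold higher and 7 lower in border macrophage-like than in microglia-like cells in both libraries, where 8.07% and 16.5% of all genes were. Igfbp4 was 8.26-fold higher in the FGF21 (5.84 to 11.4) and 10.1-fold higher in the vehicle library (7.24 to 13.8). Slc2a5, a fructose transporter, was 0.186 and 0.221 times and Inpp5d, the blood cell phosphatase SHIP1, 0.374 and 0.403 times the microglia-like level. Of 49 pathway genes, 6 were higher and 10 lower in astrocyte-like than in OPC-like cells, where 8.45% and 27.0% of all genes were. Neither pair of counts sets the lists apart from other genes. Htra1 was 8.56-fold and 8.18-fold higher, the transcription factor Foxo1 6.23-fold and 7.55-fold higher and Slc2a1 4.64-fold and 3.49-fold higher. Igfbp3 was lower, with 6 FGF21 and 0 vehicle UMIs in astrocyte-like cells against 486 and 193 UMIs in OPC-like cells.

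FGF21 and vehicle libraries were compared in the 6 classes with at least 30 cells in each. The ratio is the FGF21 CPM over the vehicle CPM with an exact conditional binomial 95% interval, and a gene was counted as apart at 1.5-fold or more with at least 20 UMIs over both libraries. In microglia-like cells 8 members had enough UMIs, of which 1 was higher and 2 lower, where 14.3% of 13019 genes were higher and 7.39% lower. Over these 8 the median log2 ratio was -0.42, and over all genes it was 0.03. Microglia-like cells of the libraries fell into different clusters, since 862 of 887 FGF21 cells lay in one and 1394 of 1408 vehicle cells in another.

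Insr was 1 of the 2 lower members. It had 195 UMIs in the FGF21 library, or 35.2 CPM (30.5 to 40.6), and 371 UMIs in the vehicle library, or 63.8 CPM (57.5 to 70.7). The FGF21 level was 0.552 times the vehicle level (0.462 to 0.658), and background predicted 33.3% of the UMIs. An Insr UMI was found in 17.7% of FGF21 and 18.5% of vehicle cells at median depths of 6030 and 4181 UMIs, and in 0 of 20 and 2.17% of erythroid-like cells. After thinning to 2000 UMIs per cell the shares were 6.47% and 11.3%. Background subtraction gave a ratio of 0.431, and all settings tried lay between 0.431 and 0.562. The 14 vehicle cells in the FGF21-rich cluster had 142 CPM (65.0 to 269.8), and the 25 FGF21 cells in the vehicle-rich cluster had 51.8 CPM (10.7 to 151). The part of the libraries' different clusters in this ratio was not tested.

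Igf1r and Irs2 in microglia-like cells leaned the same way without reaching 1.5-fold, at 0.717 (0.620 to 0.828) and 0.732 (0.603 to 0.887) of the vehicle level. Background predicted 39.0% and 53.5% of their UMIs, and subtracting it gave 0.585 and 0.386. Igfbp7 was 0.302 times the vehicle level (0.245 to 0.371) and Igf2r 1.78 times (1.04 to 3.12), with 112% and 90.2% of their UMIs predicted by background. After subtraction the Igf2r ratio was 16.9, where background predicted 98.5% of the vehicle UMIs. Mural markers, like Igfbp7, were lower in FGF21 microglia-like cells, at a sum of 370 CPM against 656 CPM in vehicle cells, and 0 of the 10 mural markers were at 0 UMIs in either library. Their part in the Igfbp7 ratio was not tested.

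In OPC-like cells the receptors and substrates were level between the libraries. The ratio was 1.01 for Insr (0.825 to 1.248), 0.919 for Igf1r (0.786 to 1.08), 1.06 for Igf2r (0.755 to 1.497), 0.973 for Irs1 (0.702 to 1.36) and 0.988 for Irs2 (0.841 to 1.16). All 5 intervals lay inside 1.5-fold in either direction. Of 8 members with enough UMIs, 0 were higher and 2 lower, where 7.97% and 7.18% of 13000 genes were. The 2 were Igfbp7 at 0.413 (0.327 to 0.522), with 108% of its UMIs predicted by background, and Igf1 at 0.530 (0.204 to 1.39), on 11 FGF21 and 10 vehicle UMIs. Leaving out the cell with most Igf1 UMIs in each library brought the gene under 20 UMIs, so it was no longer counted. OPC-like cells also lay mostly in different clusters, 468 of 587 FGF21 cells in one and 366 of 379 vehicle cells in another.

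Insr can be set side by side across classes. Its ratio was 0.552 in microglia-like and 1.01 in OPC-like cells, whose intervals did not overlap. In the Enpp6-Bmp4 cluster it was 1.13 (0.613 to 2.17), in astrocyte-like cells 0.916 (0.547 to 1.59), in oligodendrocyte-like cells 0.812 (0.383 to 1.84) and in mural-like cells 0.874 (0.406 to 1.73). No difference between these ratios was tested.

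Oligodendrocyte-like cells had 5 members with enough UMIs, of which 1 was higher and 3 lower, where 16.2% and 14.1% of 7336 genes were. Igf1r had 65 UMIs in 82 FGF21 cells, or 83.6 CPM, and 39 UMIs in 41 vehicle cells, or 135 CPM, a ratio of 0.621 (0.411 to 0.948). Irs2 had 100 and 56 UMIs and a ratio of 0.665 (0.475 to 0.940). Without the cell of highest count in each library, these ratios were 0.669 and 0.699, and 2 members in place of 4 were apart in this class. Igfbp7 was 0.317 times the vehicle level with 111% of UMIs predicted by background, and Igf2r 2.61 times (0.778 to 13.6) on 21 and 3 UMIs. The Enpp6-Bmp4 cluster had 0 of 6 members apart, where 14.6% of 8246 genes were higher and 11.0% lower, and its ratios ran from 0.745 for Igf1r to 1.13 for Insr. Thinned to 2000 UMIs per cell, which left few UMIs of any member in this small cluster, the ratios were 1.63 for Igf1r, 2.45 for Insr and Igf2r, 0.544 for Irs2 and 0.489 for Irs1. Thinning also gave 3.33 for Insr in oligodendrocyte-like cells, against 0.812 without it.

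Astrocyte-like cells had 7 members with enough UMIs, 0 higher and 2 lower, where 16.3% and 11.5% of 9424 genes were. Igf2r stood at 0.545 times the vehicle level (0.261 to 1.19) on 21 and 13 UMIs and Igfbp7 at 0.436 (0.248 to 0.776) with 110% of UMIs predicted by background. Igfbp2, the astrocyte member with least background at 7.07%, had a ratio of 1.22 (0.771 to 2.01). Mural-like cells had 6 members with enough UMIs, 1 higher and 0 lower, where 15.6% and 19.4% of 6551 genes were. The 1 was Igf2r, at 2.19 times the vehicle level (1.20 to 3.92), with 5.62% of its UMIs predicted by background. The part of Airn reads in it was not tested. Igfbp7 in mural-like cells, where it is native, was 0.730 times the vehicle level (0.659 to 0.808), short of 1.5-fold, with 1.80% background.

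**Figure D3:**
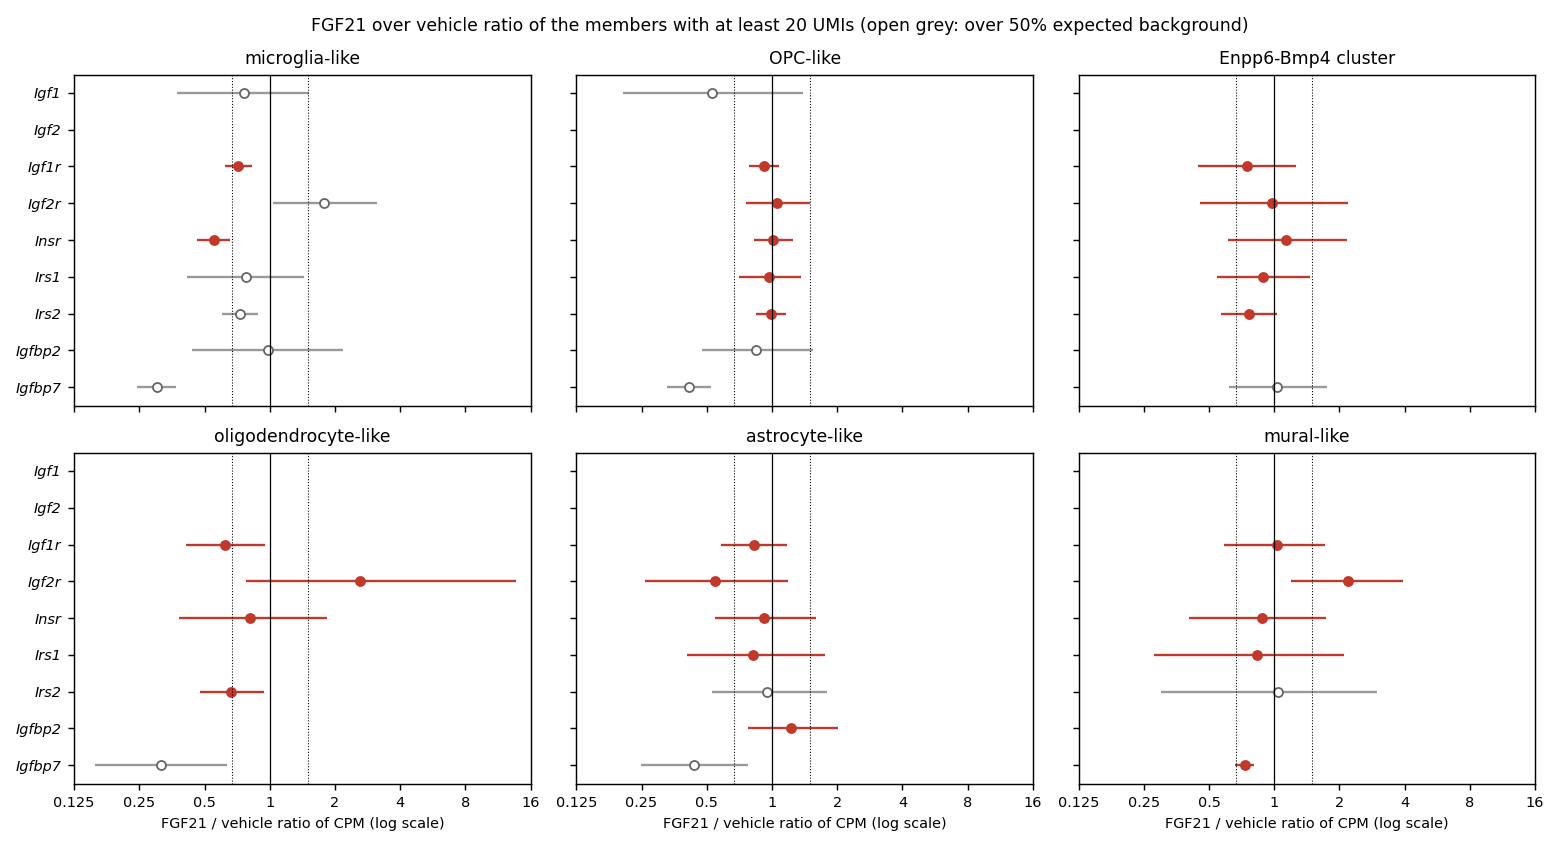
FGF21 over vehicle ratio of CPM (horizontal axis, log scale) for members with at least 20 UMIs in 6 cell classes; bars are exact 95% intervals of counting error, dotted lines mark 1.5-fold either way, and open grey points are ratios with over 50% of UMIs predicted by background. Filled points farthest from 1 are Insr in microglia-like cells at 0.552, Igf2r in mural-like cells at 2.19 and in oligodendrocyte-like cells at 2.61, and Igf2r in astrocyte-like cells at 0.545.

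The Igfbp7 ratios need the background beside them. In microglia-like cells 120 Igfbp7 UMIs were found in the FGF21 library and 123 were predicted by background, and 417 were found in the vehicle library and 479 predicted. In astrocyte-like cells 31 were found and 26.9 predicted in the FGF21 library, and 24 found and 33.5 predicted in the vehicle library. The Enpp6-Bmp4 cluster of the FGF21 library had 44 Igfbp7 UMIs where 15.1 were predicted, and that of the vehicle library had 25 where 32.5 were predicted. Mural-like cells made up 2.07% of FGF21 and 7.79% of vehicle cells and held 51.8% and 71.3% of all Igfbp7 UMIs in used cells. Igfbp2 showed the opposite picture in astrocyte-like cells, with 87 found and 6.38 predicted in the FGF21 library and 24 found and 1.46 predicted in the vehicle library.

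**Figure D4:**
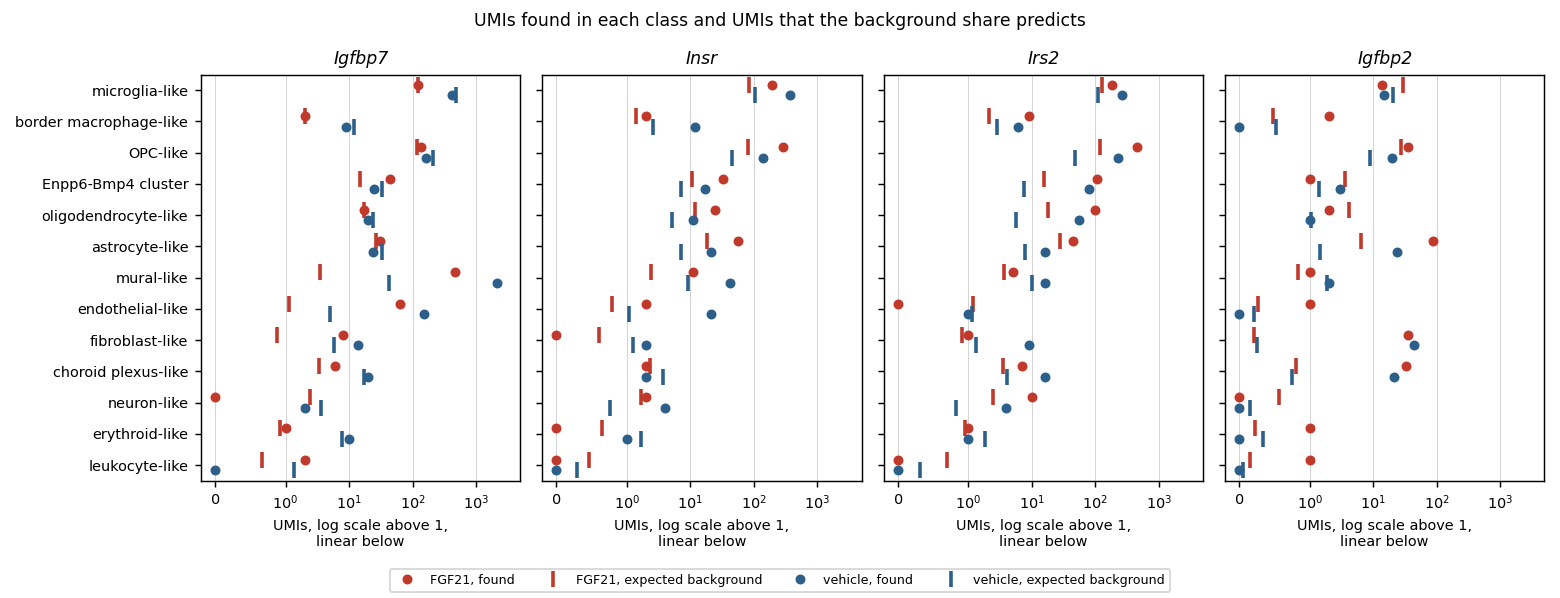
UMIs found (points) and UMIs predicted by the library's background share (vertical ticks) on a horizontal axis that is logarithmic above 1 and linear below, for 4 genes in 13 classes of the FGF21 (red, upper) and vehicle (blue, lower) libraries. Igfbp7 points lie on their ticks in microglia-like cells, with 120 found and 123 predicted in FGF21 and 417 and 479 in vehicle, and far from them in mural-like cells, while Insr points exceed theirs in microglia-like and OPC-like cells.

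Pathway genes were compared between the libraries in the same way. In microglia-like cells 9 of 57 were at least 1.5-fold higher and 5 lower, where 14.3% and 7.39% of all genes were. OPC-like cells had 4 of 55 higher and 2 lower (7.97% and 7.18% of all genes), and astrocyte-like cells 4 of 44 and 5 (16.3% and 11.5%). The Enpp6-Bmp4 cluster had 7 of 43 higher and 2 lower (14.6% and 11.0%), oligodendrocyte-like cells 1 of 38 and 5 (16.2% and 14.1%), and mural-like cells 1 of 40 and 10 (15.6% and 19.4%). The share of higher genes lay furthest below that of all genes in oligodendrocyte-like and mural-like cells, at 1 gene each. No test of the lists was run, so nothing particular about them is drawn from these counts. In microglia-like cells the higher genes included Gsk3a, a kinase that AKT inhibits, at 1.73-fold (1.54 to 1.95), the binding protein Igfbp4 at 1.63-fold (1.36 to 1.95) and Ddit4, an inhibitor of the first mTOR complex, at 1.54-fold (1.43 to 1.67). Lower genes included Pik3cb, a catalytic subunit of PI3-kinase, at 0.649 (0.556 to 0.757), and the cytokine-induced inhibitors Socs3 at 0.525 (0.318 to 0.849) and Socs2 at 0.552 (0.345 to 0.867). Gsk3a was also 1.58-fold higher in OPC-like cells (1.37 to 1.84). In mural-like cells Grb10, an inhibitory adaptor, was 0.238 times the vehicle level (0.0750 to 0.583) on 5 and 70 UMIs. Median log2 ratios over these lists were 0.01 in microglia-like and 0.00 in OPC-like cells, against 0.03 and -0.01 over all genes. They were -0.24 in mural-like and -0.14 in oligodendrocyte-like cells, against -0.01 and -0.02 over all genes. In astrocyte-like cells and the Enpp6-Bmp4 cluster they were -0.08 and -0.03, against 0.00 and 0.01.

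Other classes differed from vehicle in other pathway genes. In the Enpp6-Bmp4 cluster Sos1, an exchange factor of RAS, was 1.88-fold higher (1.09 to 3.39), Inppl1 1.66-fold higher (1.13 to 2.48) and Tsc2, a brake on the first mTOR complex, 0.524 times the vehicle level (0.322 to 0.849). In oligodendrocyte-like cells the kinase Akt2 was 0.578 times (0.378 to 0.893) and Ide, the insulin-degrading enzyme, 0.659 times the vehicle level (0.458 to 0.960). Astrocyte-like cells had 138 CPM of Slc2a1 in the FGF21 and 86.0 CPM in the vehicle library, a ratio of 1.60 (1.11 to 2.38). Their Foxo4 was at 0.513 (0.302 to 0.887), Tsc1 at 0.550 (0.333 to 0.924) and Pik3ca, a catalytic subunit of PI3-kinase, at 0.613 of the vehicle level (0.428 to 0.887). Mural-like Gab1, an adaptor, was at 0.455 (0.262 to 0.747). Pathway genes with most UMIs stayed under 1.5-fold in both larger classes. In microglia-like cells Slc2a5, Inpp5d and Pik3r1 had ratios of 0.891, 0.856 and 0.814, and in OPC-like cells Pik3r1, Lrp1, Gsk3b and Eif4ebp2 had 0.814, 1.00, 1.11 and 1.13.

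The genes with the class pattern most like each member were found by Pearson's r of log2(CPM + 10) over 15 class and library points with at least 30 cells, among 11063 genes. These points share libraries and background, so r is a description. No point came from fibroblast-like or choroid plexus-like cells, where Igfbp2 was highest. Border macrophage-like, endothelial-like and erythroid-like cells entered through the vehicle library only. The r values of Igf1 thus lean on a single point at 311 CPM, with at most 16.7 CPM at the others. Igf1 was most like Cybb (r = 0.981), a subunit of the phagocyte oxidase, and then S100a9 and S100a8, both on the leukocyte marker list. Igf1r was most like Spata6 (0.913), Insr most like Ubfd1 (0.958), Igf2r most like Tmem231 (0.929) and Irs1 most like Pard6g (0.931). Irs2 was most like Gjc3, a gap junction protein of oligodendrocytes, and Mapt, the microtubule protein tau (both 0.948). Igfbp2 was most like Sorcs2 (0.967) and Igfbp7 most like Tbx3 (0.982), and no gene reached 0.9 for Igf2.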

How the data were processed

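FGF21-treated and vehicle-treated mice gave 1 BD Rhapsody single-cell library each. The deposited values are whole-number counts of molecules (UMIs) per gene and cell. Per the file headers, they come from version 1.9.1 of the BD WTA Rhapsody Analysis Pipeline. The genome build was GRCm38 per the submitters' processing notes. The annotation behind the counts and whether counting used strand were not given in the sources used here. The tables held 2455 FGF21 and 2925 vehicle barcodes with 14585503 and 11130580 UMIs.

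Barcodes were dropped if they had under 500 UMIs, under 300 genes or over 25% of UMIs from mitochondrially encoded genes. With the doublets, 520 FGF21 and 588 vehicle barcodes were left out. Doublets called were 33 cells, 0.767% of the filtered cells. Cells were clustered in scanpy 1.11.5 (python 3.11.15, igraph 0.11.9) with 15 neighbours in 30 principal components of 2000 variable genes (Leiden, resolution 1.0), and 16 member and pathway genes were left out of the variable genes. Each of 16 clusters was named by the highest of 13 marker lists, with a lead of at least 0.5 in mean z over the second and at least 3 markers found. The Enpp6-Bmp4 cluster missed that lead.

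Levels were summed UMIs per 1000000 UMIs of the class. Intervals are 95%: exact Poisson for levels, Clopper-Pearson for shares and conditional binomial for ratios (scipy 1.17.1). They cover counting error only, since cells are not replicates. Genes needed 20 UMIs over both libraries and at least 1.5-fold to be counted as apart, and classes 30 cells in each library. On simulated microglia-like libraries of 13015 genes, 96.1% of intervals covered the true ratio, 99.5% of 200 genes changed 2-fold were called, and 4.75% of unchanged genes were called. The simulation drew Poisson counts from a pooled profile, the error that the intervals assume, so it checks the calculation only. It holds no variation between mice, cells or clusters, so its rates do not carry over to the real libraries.

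Members and lists were chosen with earlier results of these data known. Pathway genes named between libraries were the 4 with most UMIs per class and up to 4 per direction at least 1.5-fold apart with at least 50 UMIs and at most 50% background. A gene that this rule names is not reported here. Those named between classes were chosen after their values were seen, from up to 4 largest per direction. For likeness, genes with at least 200 UMIs and r of at least 0.9 were named, up to 3 per member. Gene positions are from GENCODE on GRCm38 and promoters from RefSeq. Alternatives covered cell filters, doublets, resolution, clustering genes, scaling, weighting, thinning, background subtraction, single cells and the fold.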

Additional observations from a re-analysis of the deposited data

How the results depend on the processing

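In all, 809 values were recomputed. Direction was checked only for called ratios between libraries and for ratios between classes, and 0 of these reversed. Levels and counts have no direction, and a setting that left a level at or below 0 gave no ratio. Ratios that were not called could cross 1, as for Insr in oligodendrocyte-like cells (0.564 to 3.33) and Igf1 in microglia-like cells (0.517 to 1.23). Of 432 ratios between libraries 16 moved beyond their counting interval, of 194 levels 10, of 105 ratios between classes 5, and of 78 counts of members apart 16 moved by over 1.5 times. The ratios between classes were added after seeing the data. In microglia-like cells 3 members were apart, against 7 when a fold lower than 1.5 was set and 1 at 2-fold. In OPC-like cells the count was 2, against 1 with cells thinned to 2000 UMIs, 1 without the cell of highest count and 1 at 2-fold. The Enpp6-Bmp4 cluster had 0, against 1 when thinned, 1 with background subtracted and 2 at the lower fold. Oligodendrocyte-like cells had 4, against 2 when thinned, 2 without the cell of highest count and 2 at 2-fold. Astrocyte-like cells had 2, against 1 when thinned, 1 with background subtracted and 1 at 2-fold. Mural-like cells had 1, against 2 with the mean of cells and 2 at the lower fold. Thinning left few UMIs in small classes, and apart from the numbers of UMIs the cause was not tested. Under the stricter filter (at least 1000 UMIs, at most 15% mitochondrial) and the looser one (at most 40%), no border macrophage-like class was named, so Igf1 has no value there.

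No paired analysis was possible because each treatment has 1 library, so the groups share fewer than 2 replicate numbers. Leaving out a library would leave no comparison. Depth limits classes under 30 cells, and members with under 20 UMIs in a class cannot be ranked between libraries.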

Other observations

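Insulin itself was nearly undetected. Ins2 had 3 UMIs in FGF21 and 3 in vehicle choroid plexus-like cells, or 19.7 and 14.3 CPM. Microglia-like cells had 1 FGF21 and 6 vehicle Ins2 UMIs and 4 and 5 Ins1 UMIs, at most 1.03 CPM. OPC-like cells had 0 and 2 Ins2 UMIs and 1 and 2 Ins1 UMIs. Igfbpl1, a relative of the binding proteins known from immature neurons, had 22 UMIs in 20 FGF21 and 28 UMIs in 15 vehicle neuron-like cells, or 206 and 649 CPM. Igf2bp2, which binds the Igf2 transcript, had 168 UMIs in FGF21 and 140 in vehicle microglia-like cells, or 30.4 and 24.1 CPM. Igfbp3 was at 93.0 CPM in FGF21 and 76.6 CPM in vehicle OPC-like cells. Igfbp5 in fibroblast-like cells had 1 UMI in the FGF21 library and 104 in the vehicle library, 66 of them in 1 cell. Htra1, which cleaves binding proteins, stood at 1348 CPM in FGF21 and 1679 CPM in vehicle astrocyte-like cells. Slc2a1 stood at 1404 CPM in FGF21 and 2325 CPM in vehicle endothelial-like cells. These genes were picked after their values were seen.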
